A study of Homo sapiens with 4 samples.

Results

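The activator protein 1 (AP-1) genes FOSL1, FOSL2, FOS, JUN, JUNB, JUND and ATF3 were examined in RNA bound by NSUN2 in PANC-1 cells. The 7 genes were chosen by name: FOSL1 is a candidate target that the study names from its sequencing, and the others are its relatives. In follow-up assays the study found no change in m5C or stability of the FOSL1 mRNA. It proposes that FOSL1 is not a true NSUN2 m5C target. The 7 genes were matched by gene symbol in the deposited peak lists, and 6 of the 7 had a called peak, among 15016 gene symbols with one. FOS had none in either list. Their called peaks fell into 13 merged peaks of 116484 in all.

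AP-1 is a family of transcription factors that work as pairs of basic leucine zipper proteins, built from JUN proteins with one another or with a FOS or ATF protein. Most of the genes are switched on within minutes of growth factor or stress signals, and their mRNAs are made and degraded quickly. In pancreatic ductal cancer, FOSL1 (the protein FRA-1) is known as an AP-1 member that acts downstream of ERK and is linked to invasion.

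NSUN2 is a methyltransferase that places 5-methylcytosine on RNA. RIP-seq sequences the RNA recovered with an antibody against a protein (the IP library) and, for comparison, the RNA of the lysate before recovery (the input library). PANC-1, an established line from a human pancreatic ductal adenocarcinoma, is labelled wild-type, and received sodium lactate at 30 mM or the vehicle ddH2O for 24 h. The question was which transcripts NSUN2 held in cells with and without added lactate. Each condition had 1 anti-NSUN2 IP library and 1 input library without antibody, 4 libraries in all, so no value has a replicate error, no test of the condition was possible, and every interval covers counting error only. No library with a control antibody was analysed here.

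Peak calling by the authors, with the matching input as the control for each IP, gave 48104 peaks for lactate and 95785 for ddH2O. For the merged peaks they gave a read density per IP library, counted in a window of 2000 bases around the summit and normalized with MAnorm, which levels the libraries along a straight line in mean density. The reads behind each window could be computed back, and a median of 5 reads per window was found for the lactate IP and of 7 for the ddH2O IP. The totals of reads are not given, but the peak lists gave relative depths: the IP libraries were within a factor of 1.02 of each other, and the ddH2O input was 1.53 times as deep as the lactate input. Reads in merged peaks outside MT-RNR2 and MALAT1 were nevertheless 1.82 times as many in the ddH2O IP, so a ratio between conditions depends on how the libraries are scaled. Of 5 markers of ductal epithelium all had a merged peak, with KRT18 and KRT8 dense (2455 and 1356 reads per kb with lactate) and EPCAM at 1 read with lactate and 3 with ddH2O. Of 5 immune and endothelial markers, CD68 and 1 other had one, and the CD68 window held 30 and 62 reads.

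FOSL1 stood above its relatives by read density in the NSUN2 IP. Its 3′ UTR window had a normalized density of 461 reads per kb with lactate and 268 with ddH2O, whereas no window of another AP-1 gene exceeded 37.7 and 36.1. Ranked by the densest window of each gene, FOSL1 was at position 242 of 12396 protein-coding genes with a merged peak, or denser than 98.0% of them. JUND followed, denser than 71.2% of the genes, then JUN at 65.8%, ATF3 at 62.8%, JUNB at 49.4% and FOSL2 at 38.7%. This is a rank of IP density, in which the input has no part.

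Below FOSL1 the order of the genes was not firm. In the lactate IP the reads of the densest windows were 60 for JUN (95% Poisson interval 45.8 to 77.2), 56 for JUND (42.3 to 72.7) and 29 for ATF3 (19.4 to 41.6). JUN and JUND thus overlapped, while ATF3 lay below both. JUNB had 18 reads (10.7 to 28.4) and FOSL2 had 12 (6.20 to 21.0), and each of these intervals overlapped that of the gene above. In the ddH2O IP, JUND had 90 reads (72.4 to 111), ATF3 81 (64.3 to 101) and JUN 51 (38.0 to 67.1). There ATF3 overlapped both JUND and JUN, and JUN overlapped JUNB, which had 38 reads (26.9 to 52.2), as JUNB did FOSL2 with 19 (11.4 to 29.7).

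**Figure D1:**
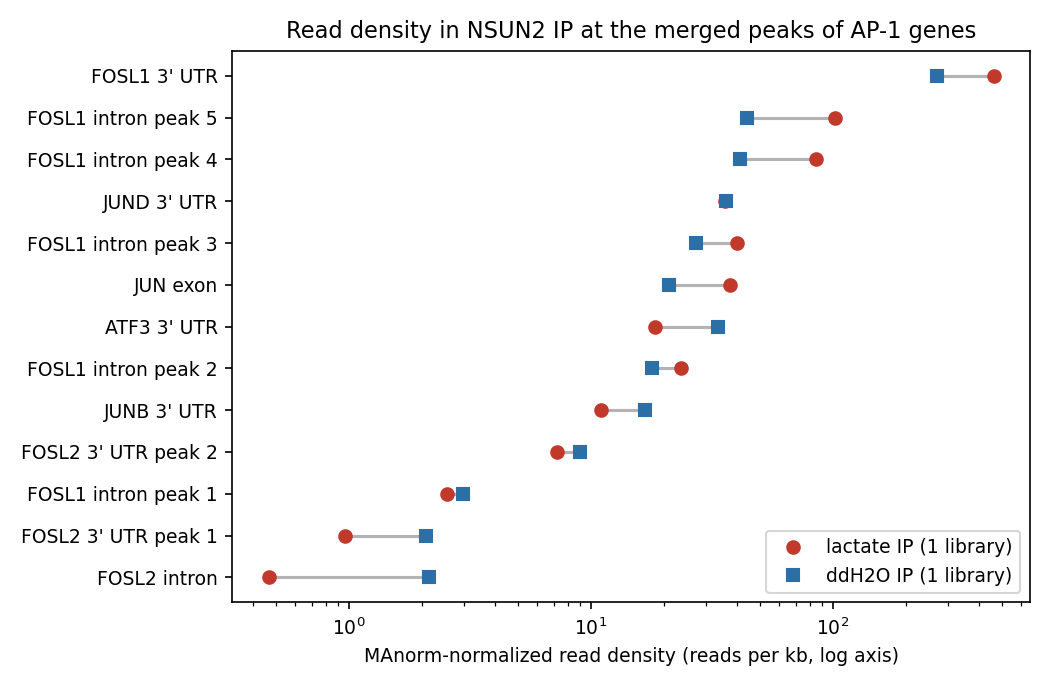
MAnorm-normalized read density (reads per kb, log axis) at the 13 merged peaks of the AP-1 genes, with 1 point for the lactate IP (circles) and 1 for the ddH2O IP (squares), a single library each. The FOSL1 3′ UTR is farthest right at 461 and 268, and the windows of FOSL2 and FOSL1 intron peak 1 lie at the low end, where a few reads set the value.

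FOSL1 (ENSG00000175592) lies on the minus strand of chromosome 11 from 65892049 to 65900545 in GRCh38, a span of 8497 bases. It had 5 called peaks in each list and 6 merged peaks, of which the annotation puts 1 in the 3′ UTR and 5 in introns of transcript ENST00000312562. The intron peaks are numbered here from the gene start. The numbers count peaks, since the lists do not say which intron holds each. This is 0.706 merged peaks per kb, more than 98.3% of 12261 protein-coding genes with a known span, although by number of merged peaks it exceeded 62.5% of genes. A short span raises this density: JUNB and JUND, with 1 merged peak each, exceeded 96.5% and 96.2% of genes per kb. The called peaks covered 23.5% of the gene with lactate and 30.0% with ddH2O. The summits of the merged peaks lay 968, 1930, 2861, 4292, 5197 and 8155 bases from the gene start, with the intron peaks first in that order and the 3′ UTR summit 341 bases before the end of the gene.

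The 3′ UTR peak of FOSL1, on chromosome 11 from 65892136 to 65892637, carried most of the reads. At its summit 256 IP reads stood over 66 input reads with lactate, and 382 over 121 with ddH2O. The fold over input was 3.01 with lactate and 3.83 with ddH2O, with q-values from the peak caller of 1.6e-36 and 6.6e-100. This peak therefore had many reads in the input as well as in the IP. Its folds were higher than 37.0% of the peaks in the lactate list and 66.0% of those in the ddH2O list. The window runs 659 bases past the gene end, shares 246 bases with the neighbouring gene CCDC85B, and overlaps the window of a CCDC85B exon peak (385 and 217 reads per kb) by 1001 bases. Reads in that overlap were counted for both genes, and their share from each was not tested. The CCDC85B peak had higher folds over input, 6.28 with lactate and 7.87 with ddH2O.

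The intron peaks of FOSL1 had fewer reads than the 3′ UTR, and intron peaks 3 and 4 had higher folds in both lists. Intron peak 3, from 65897368 to 65898260, had the highest fold of any AP-1 peak, 11.1 with lactate and 11.8 with ddH2O, with 32 and 37 IP reads at the summit. These folds were higher than 97.5% of the peaks in the lactate list and 97.4% of those in the ddH2O list. Intron peak 4, from 65896008 to 65896502, had a fold of 9.66 with lactate over 66 IP reads and of 7.42 with ddH2O over 51. Both peaks stood in both lists, and their recovered input levels have the steps of a 10 kb window rather than of the summit.

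Intron peak 5 of FOSL1, from 65894979 to 65895595, differed most between the lists. Its fold was 6.50 with lactate and 1.98 with ddH2O, where the q-value was 0.140. The IP summit held 45 reads with lactate and 22 with ddH2O, and the input level was 4.58 with lactate and 13.0 with ddH2O. The size of the window behind each level is not in the lists and was inferred from the steps of the recovered level. By that inference it was 10 kb for lactate and the summit itself for ddH2O, so the folds of this peak are not a like-for-like pair. The remaining peaks were called in a single list. Intron peak 2, from 65898433 to 65898798, was in the ddH2O list with a fold of 4.47 over 8 IP reads and a q-value of 5.6e-04. Intron peak 1, from 65899478 to 65899677, was in the lactate list with 4 IP reads, a fold of 2.49 and a q-value of 1.0.

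**Figure D2:**
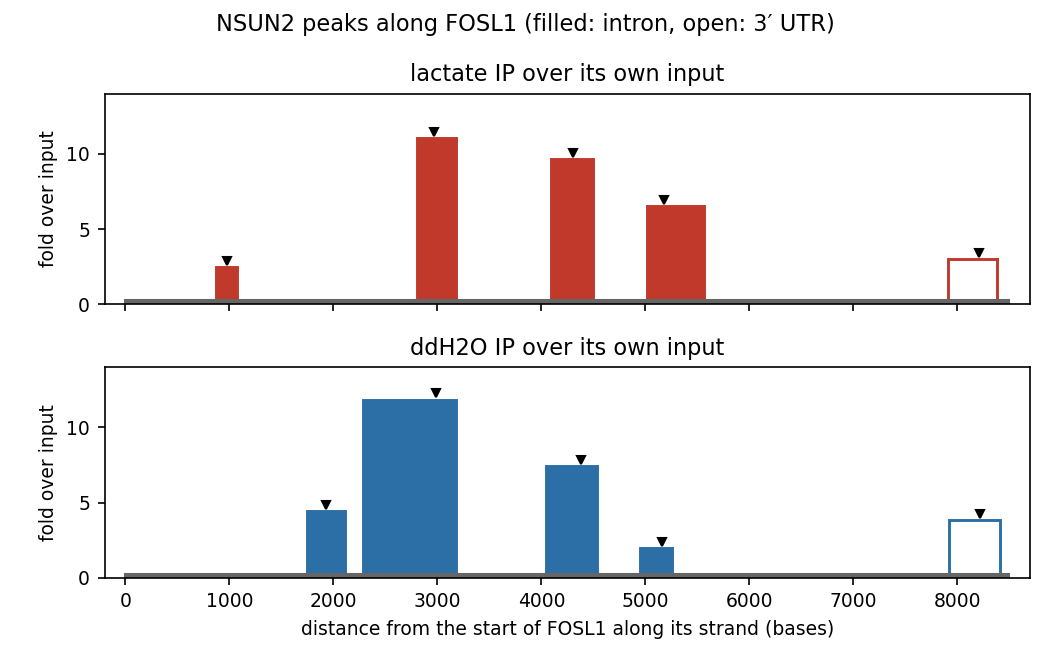
Called NSUN2 peaks along FOSL1, with the distance from the gene start along its strand in bases and the fold over input as the height of each box, for the lactate IP (top) and the ddH2O IP (bottom). Filled boxes are intron peaks, open boxes 3′ UTR peaks, and triangles mark summits. The intron peak 3 boxes are the tallest at 11.1 and 11.8, while the 3′ UTR boxes reach 3.01 and 3.83.

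Between conditions, the FOSL1 3′ UTR window held 602 reads with lactate and 818 with ddH2O. On the MAnorm densities the log2 ratio of lactate over ddH2O was 0.78 (95% interval 0.63 to 0.93), scaled by the reads of each library in windows other than those of MT-RNR2 and MALAT1 (library sums) it was 0.42 (0.27 to 0.57), and scaled by IP depth, an alternative chosen after seeing the data, it was -0.47 (-0.62 to -0.31). The sums over all windows, an alternative that was planned, gave -0.47 too. Their factor between the IP libraries was 1.02, as for IP depth, so these scalings must nearly coincide at every window. The direction of the densest AP-1 window thus turned with the scaling. The median over all merged peaks moved with it, at -0.50 on MAnorm, 0.07 by library sums and -0.82 by IP depth.

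For that reason each window was also placed among those of like mean density on MAnorm, by the ratio of its unscaled reads. Of 403 windows on protein-coding genes within 0.5 log2 units of the mean density of the FOSL1 3′ UTR, 93.8% had a lower ratio of lactate reads to ddH2O reads. This is a description of 2 libraries and not a test. The median log2 ratio of those windows was 0.18 on MAnorm and -1.04 by IP depth.

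Intron peaks 5 and 4 of FOSL1 leaned toward lactate more than nearly all windows of like density. Intron peak 5 held 153 reads with lactate and 116 with ddH2O, and its density was 102 against 44.0 reads per kb. Its log2 ratio was 1.22 (0.86 to 1.58) on MAnorm, 1.26 (0.90 to 1.62) by library sums and 0.37 (0.02 to 0.74) by IP depth, and 99.5% of 2418 windows of like density had a lower ratio. The interval was above 0 on each scaling. The ratio was past 2-fold on MAnorm and by library sums, but those intervals reached below 2-fold.

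Intron peak 4 held 128 reads with lactate and 108 with ddH2O, and its density was 84.8 against 41.5 reads per kb. Its log2 ratio was 1.03 (0.65 to 1.42) on MAnorm, 1.11 (0.73 to 1.49) by library sums and 0.22 (-0.16 to 0.60) by IP depth, with 98.9% of 2648 windows lower. The windows of intron peaks 5 and 4 share 1095 bases, so they counted some of the same reads. Those of intron peaks 3 and 2 share 1069 bases, and that of intron peak 1 overlaps another by 1038. The ratios of neighbouring intron peaks are thus not separate observations. Intron peak 3 held 63 and 67 reads, with a log2 ratio of 0.56 (0.04 to 1.08) on MAnorm, 0.78 (0.25 to 1.29) by library sums and -0.11 (-0.63 to 0.40) by IP depth, and 89.6% of its like-density windows were lower. Toward the gene start the ratios could not be set apart from 0 on MAnorm, at 0.39 (-0.29 to 1.05) for intron peak 2 with 38 and 42 reads and -0.22 (-2.61 to 1.93) for intron peak 1 with 4 and 5 reads. By library sums intron peak 2 was at 0.72 (0.05 to 1.39), with an interval above 0, and by IP depth at -0.17 (-0.84 to 0.50).

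FOSL2 (ENSG00000075426), which encodes the related protein FRA-2, is on the plus strand of chromosome 2 from 28392858 to 28417317. It had 3 called peaks, all in the ddH2O list and none with a q-value below 0.05. The downstream 3′ UTR peak, from 28416285 to 28416484, held 12 reads with lactate and 19 with ddH2O, with a fold over input of 1.55 in the ddH2O list. Its log2 ratio was -0.32 (-1.54 to 0.76) on MAnorm and 0.24 by library sums, so no direction could be given. The upstream 3′ UTR window, from 28414050 to 28414249, held 1 and 3 reads, and the intron window, from 28395088 to 28395287, held 0 and 3 and includes 486 bases of FOSL2-AS1. Both are at or under the floor of 3 reads, and no fold is given. FOS, whose product is the classical partner of JUN, lies on chromosome 14 from 75278828 to 75282230, and a peak list without an entry there gives no level for its RNA.

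JUN (ENSG00000177606), the core AP-1 protein that can pair with itself, is on the minus strand of chromosome 1 from 58780791 to 58784047 and had 1 exon peak from 58781961 to 58782458, called in both lists. At its summit 37 IP reads stood over 2 input reads with lactate and 28 over 3 with ddH2O, for folds of 10.0 and 8.40. The window held 60 and 51 reads, at densities of 37.7 and 21.1 reads per kb. The log2 ratio was 0.84 (0.28 to 1.41) on MAnorm, 1.09 (0.53 to 1.66) by library sums and 0.21 (-0.35 to 0.78) by IP depth. It was positive on each scaling, but its interval included 0 by IP depth. Of 4604 windows of like density, 94.6% had a lower ratio.

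JUNB (ENSG00000171223), which counteracts JUN on many promoters, and JUND (ENSG00000130522), the JUN protein typical of resting cells, lie on chromosome 19, JUNB from 12791486 to 12793315 on the plus strand and JUND from 18279694 to 18281622 on the minus strand. Each had 1 peak in its 3′ UTR, called in the ddH2O list alone. The JUNB peak, from 12792959 to 12793287, had a fold of 3.0 with 29 IP reads over 11 input reads at the summit, and its window also takes in 228 bases of HOOK2. The JUND peak, from 18279786 to 18280009, had a fold of 1.55 with 73 IP reads over 57 input reads. JUND thus had more IP reads at its summit than JUN but was barely above its input, with a q-value of 0.0362.

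A peak missing from the lactate list did not mean an empty lactate window. The JUND window held 56 reads with lactate and 90 with ddH2O, at densities of 35.9 and 36.1 reads per kb and a log2 ratio of -0.01 (-0.52 to 0.48) on MAnorm. By library sums the JUND ratio was 0.19 (-0.33 to 0.68) and by IP depth -0.70 (-1.22 to -0.21). The JUNB window held 18 and 38 reads, and its log2 ratio was -0.61 (-1.54 to 0.20) on MAnorm, -0.17 (-1.11 to 0.63) by library sums and -1.06 (-2.00 to -0.26) by IP depth. Both intervals included 0 on MAnorm and by library sums and excluded 0 by IP depth. The planned sums over all windows, which nearly coincide with IP depth at every window, gave -0.71 for JUND and -1.07 for JUNB. Among windows of like density, 61.5% had a lower ratio than JUND and 29.7% a lower ratio than JUNB.

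ATF3 (ENSG00000162772), a stress-induced member that often represses transcription, is on the plus strand of chromosome 1 from 212565407 to 212620777. By its densest window it was the member most shifted toward ddH2O, among those with over 20 reads. By the median over the windows of each gene on MAnorm, FOSL2 was lower, at -1.12, set by its window of 1 and 3 reads. The ATF3 3′ UTR peak, from 212620325 to 212620767, had 18 IP reads over 6 input reads with lactate and 61 over 11 with ddH2O. The fold was 2.16 with a q-value of 0.706 with lactate, and 6.20 with a q-value of 1.8e-27 with ddH2O. The window held 29 and 81 reads, at densities of 18.3 and 33.6 reads per kb. Its log2 ratio was -0.87 (-1.57 to -0.28) on MAnorm, -0.59 (-1.28 to 0.01) by library sums and -1.48 (-2.17 to -0.88) by IP depth. The sign was negative on each scaling, the interval just reached 0 by library sums, and 14.5% of 5033 windows of like density had a lower ratio.

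**Figure D3:**
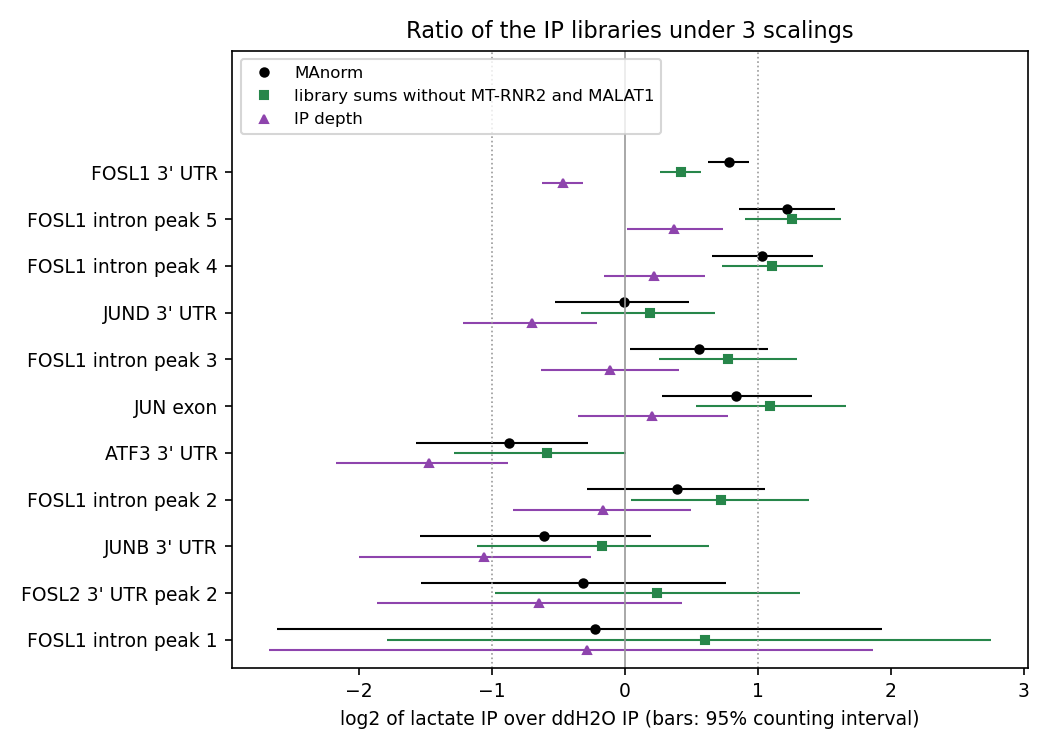
Log2 ratio of lactate IP over ddH2O IP for the AP-1 windows with more than 3 reads in a library, on the MAnorm densities (circles), by library sums without MT-RNR2 and MALAT1 (squares) and by IP depth (triangles), with 95% counting intervals and dotted lines at 2-fold. FOSL1 intron peaks 5 and 4 and JUN are above 0 and ATF3 and JUNB below 0 on all 3 scalings, while the FOSL1 3′ UTR moves from 0.78 and 0.42 to -0.47.

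Counted past 2-fold on MAnorm, 2 of the 13 AP-1 windows were higher with lactate, intron peaks 5 and 4 of FOSL1, where 13.9% of all merged peaks were. Another 2 were lower, where 38.6% of all merged peaks were, and both are the FOSL2 windows at or under 3 reads. The share that was higher is close to the background. Over merged peaks on protein-coding genes the backgrounds were 13.6% higher and 36.4% lower. Past 1.5-fold, 4 AP-1 windows were higher and 4 lower, where 20.6% and 48.0% of all merged peaks were. By library sums 3 were higher, JUN being the third, against 24.5% of all merged peaks, and 1 was lower against 20.5%. By IP depth 0 were higher against 11.9%, and 4 were lower against 46.0%.

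Among the 10 AP-1 windows with at least 20 reads in the IP libraries together, 2 were higher and 0 lower on MAnorm, where the backgrounds were 7.65% and 18.6%. By library sums 3 of the 10 were higher and 0 lower, with backgrounds of 17.0% and 8.77%, and by IP depth 0 were higher and 2 lower, with backgrounds of 3.94% and 37.8%. Over all merged peaks past 2-fold, 26.5% were higher on MAnorm, 54.5% by library sums and 20.6% by IP depth, so the split of the background itself turned with the scaling. The median log2 ratio of the 13 AP-1 windows was -0.01 on MAnorm, 0.42 by library sums and -0.47 by IP depth, above the median over all merged peaks each time. FOSL1 holds 6 of these windows, some of which overlap. Taken once per gene, the median was -0.16 at the densest windows on MAnorm, above the -0.50 of all merged peaks. Over summed reads it was 0.08 by library sums and -0.81 by IP depth, close to the 0.07 and -0.82 of all merged peaks. Most merged peaks were sparser than these densest windows. Windows of like density had MAnorm medians from -0.21 at JUNB to 0.18 at the FOSL1 3′ UTR, a range that includes the -0.16.

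**Figure D4:**
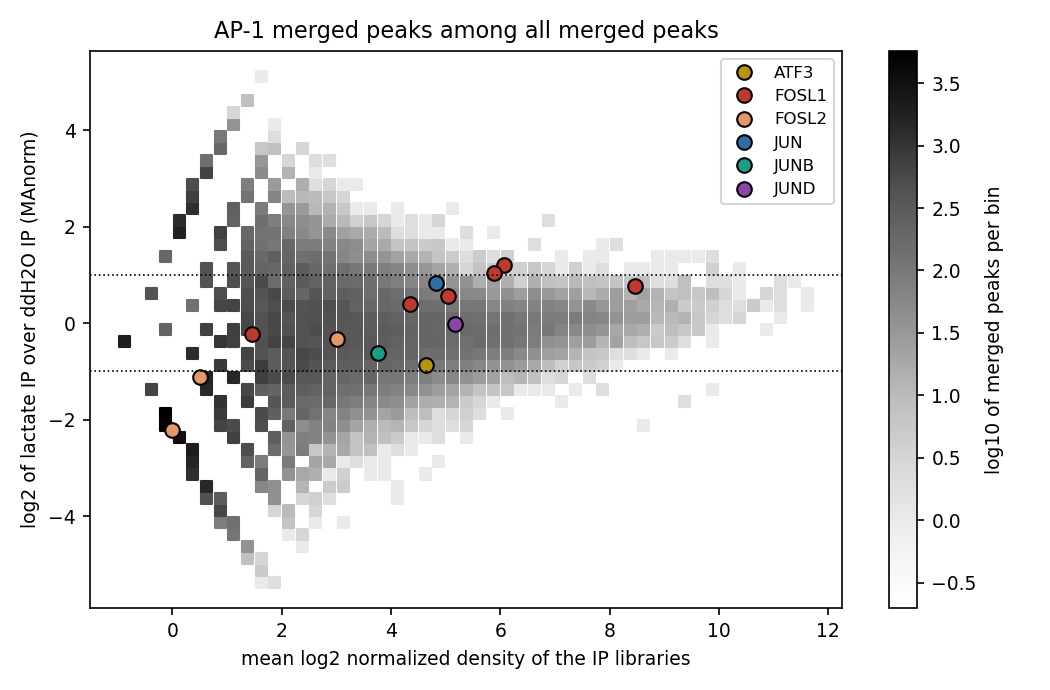
Log2 ratio of lactate IP over ddH2O IP on MAnorm against the mean log2 normalized density, with all 116484 merged peaks as grey bins (darker for more peaks) and the 13 AP-1 windows in colour, with dotted lines at 2-fold. FOSL1 intron peaks 5 and 4 lie above the upper line at 1.22 and 1.03, the FOSL1 3′ UTR is far right at a mean of 8.46, and the FOSL2 windows under the lower line are at the sparse left end.

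More RNA in the cells and more NSUN2 on each RNA cannot be told apart from IP reads alone, so the IP was set against the input. This was done for the 6 peaks called in both lists, with IP and input each scaled by depth. For the FOSL1 3′ UTR the log2 change of lactate over ddH2O was -0.60 in the IP summit reads and -0.26 in the input, which left -0.34 in IP over input (SE 0.25). For ATF3 the IP change was -1.79 and the input change was -0.26, which left -1.53 (SE 0.83). Neither 95% interval excluded 0, at -0.83 to 0.15 for FOSL1 and -3.15 to 0.10 for ATF3.

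FOSL1 intron peak 4 changed by 0.45 in IP over input (SE 0.30), intron peak 3 by 0.14 (SE 0.41) and the JUN exon by 0.35 (SE 1.37), the last on 2 and 3 input reads. These intervals included 0. Intron peak 5 gave 1.90 (SE 0.56), which was higher than 95.3% of 22278 peaks on protein-coding genes called in both lists, but with the unequal input levels described above. The median of those peaks was -0.02. The FOSL1 3′ UTR was higher than 38.8% of them, intron peak 4 than 66.7% and intron peak 3 than 56.1%. The JUN exon was higher than 63.5% of them and ATF3 than 8.26%.

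**Figure D5:**
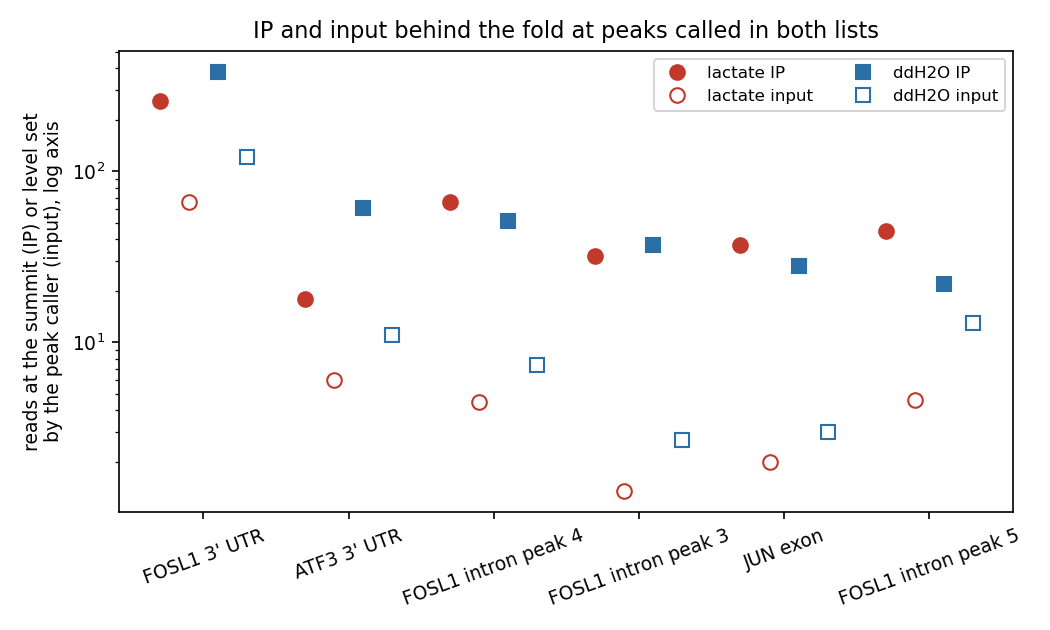
IP reads at the summit (filled) and the input level used by the peak caller (open), on a log axis, for the lactate (circles) and ddH2O (squares) libraries at the 6 AP-1 peaks called in both lists, with no depth scaling. The FOSL1 3′ UTR has the most input, 66 and 121, JUN the fewest summit input reads, 2 and 3, and ATF3 the widest IP gap, 18 against 61.

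By region of the transcript, the 7 called AP-1 peaks of the lactate list were 1 exon, 4 intron and 2 3′ UTR peaks, and the 12 of the ddH2O list were 1 exon, 5 intron and 6 3′ UTR peaks. None was in a 5′ UTR. The share in 3′ UTRs was 28.6% with lactate (exact binomial interval 3.67 to 71.0) and, as 6 of 12, had an interval of 21.1 to 78.9% with ddH2O, while over all peaks on protein-coding genes it was 18.1% and 15.8%. FOSL1 supplied each of the 4 intron peaks with lactate and 4 of the 5 with ddH2O. With so few peaks, drawn from 6 genes, the shares of the lists could not be set apart.

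Among other genes of the pathway, 13 further AP-1 and basic leucine zipper genes were examined, and 8 had a called peak with lactate and 9 with ddH2O. Of their 27 merged peaks, 6 were higher and 8 lower past 2-fold on MAnorm, with a median log2 ratio of -0.18. By library sums 9 were higher and 2 lower, by IP depth 4 and 10, and among the 11 windows with at least 20 reads 0 and 3 on MAnorm, so the windows that were higher on MAnorm all had fewer reads than that. ATF4, the translation-controlled effector of the integrated stress response, was the densest, at 2707 and 1940 reads per kb, with a log2 ratio of 0.48 on MAnorm and -1.22 by IP depth. The small MAF proteins, which lack an activation domain, followed with MAFG at 145 and 98.6 and MAFK at 37.1 and 32.2. ATF4 thus exceeded the FOSL1 3′ UTR in both libraries, while MAFG lay below it.

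Immediate-early genes outside AP-1, which answer the same signals, had a called peak in 10 of 23 genes with lactate and 16 with ddH2O. Of their 30 merged peaks 6 were higher and 7 lower on MAnorm, with a median of -0.08. By library sums 5 were higher and 3 lower, by IP depth 4 and 11, and among the 24 windows with at least 20 reads 6 and 2 on MAnorm. The densest were KLF6, a zinc finger transcription factor, at 483 and 289 reads per kb, IER3, a regulator of cell survival, at 462 and 215, and NFKBIA, the inhibitor of NF-κB, at 292 and 227. KLF6 and IER3 thus lay close to the FOSL1 3′ UTR in density, and their log2 ratios of 0.74 and 1.10 on MAnorm also fell below 0 by IP depth, to -0.52 and -0.12.

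Of 19 textbook AP-1 target genes 7 had a called peak with lactate and 12 with ddH2O. Their 53 merged peaks gave 5 higher and 15 lower on MAnorm, with a median of -0.35. By library sums 10 were higher and 5 lower, by IP depth 1 and 24, and among the 29 windows with at least 20 reads 2 and 2 on MAnorm. The split over all merged peaks moved with the scaling in the same way. HMGA1, a chromatin architectural protein, had the densest window at 796 and 449 reads per kb, CCND1 (cyclin D1) had 359 and 238, and GSTP1, a glutathione transferase, 258 and 242. Their log2 ratios on MAnorm were 0.83, 0.59 and 0.09, and each was negative by IP depth. No test was made of these lists. The backgrounds for their counts past 2-fold are those given above for each scaling and for windows with at least 20 reads. For the counts of genes with a called peak, AP-1 genes included, no share over all genes is given here. The lactate list was the shorter, with 48104 peaks against 95785, so fewer genes with a lactate peak are not read as a result about these genes.

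The protein-coding genes whose densest window was nearest to that of FOSL1 in the log2 densities of the IP libraries were LRRC75A (distance 0.0738), TMED9 (0.0772) and CALU (0.0868). Each of these windows was also in a 3′ UTR. Their densities were 452 and 256 reads per kb for LRRC75A, 437 and 270 for TMED9 and 483 and 278 for CALU. With only 2 libraries this likeness means no more than a similar density in each.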

How the data were processed

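RIP-seq of NSUN2 was analysed in PANC-1 cells, with 1 IP and 1 input library per condition taken from the sample labels. The submitters' processing notes name fastp 0.20.1, HISAT2 2.1.0, MACS2 2.2.7.1, bedtools 2.29.2, HOMER 4.11.1, DiffBind and GRCh38, without roles. The authors called peaks per IP library and deposited the fold over input, which is a ratio, a −log10 p-value and a q-value per peak, and MAnorm-normalized signal (read density) for the merged peaks. Their M and P columns hold the log2 ratio and a p-value of the comparison and were not used. The kit named in the labels does not keep the strand of the RNA, so overlapping genes cannot be told apart.

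Called peaks were joined to merged peaks by an overlap of at least 1 base. Coordinates count from 1, and gene spans come from RefSeq GRCh38.p14. Log2 ratios were taken of the deposited densities. Reads per window were recovered as density times the window in kb less 1 read, with the line in mean density put back, and 99.998% of windows gave whole reads (tolerance 0.05 reads). IP and input reads at summits were computed back from fold and p on the Poisson model of the peak caller, and for 99.9% (lactate) and 99.8% (ddH2O) of peaks a whole number of IP reads gave the listed −log10 p (relative tolerance 0.0001). Intervals of the ratios between IP libraries are exact binomial (Clopper-Pearson) at the 95% level, and those of IP over input are normal intervals from the counting SE. The recovery was tested on simulated data. A window was counted as higher or lower past 2-fold. The alternatives were library sums outside MT-RNR2 and MALAT1 or over all windows, 20 reads, a fold of 1.5, an overlap of 50%, exon and UTR peaks, summed or median ratios per gene, a fold over input of 4, a q-value below 0.05 and the best-scored peak, with IP depth added after seeing the data. The members and lists were chosen with earlier results of these data known. Genes named were the members, up to 3 genes with the densest window per list, and the 3 genes nearest to FOSL1. CCDC85B, EGR1 and EPCAM were chosen after their values were seen. Python 3.11.15, numpy 2.4.6, pandas 2.3.3, scipy 1.17.1, matplotlib 3.10.9 and bedtools 2.31.1 were used.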

Additional observations from a re-analysis of the deposited data

How the results depend on the processing

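The counts past 2-fold rested on few windows. With IP depth, 0 AP-1 windows were higher and 4 lower with lactate, against 2 and 2 on MAnorm. Past 1.5-fold 4 were higher and 4 lower, by library sums 1 was lower, and with at least 20 reads 0 were lower. Among exon and UTR windows 0 were higher and 1 lower, the upstream 3′ UTR window of FOSL2 with 1 and 3 reads. No share over all exon and UTR windows is given here, so that count has no background. A fold over input of at least 4 left 4 called peaks with lactate and 5 with ddH2O. Of these, 0 with lactate and 1 with ddH2O were in a 3′ UTR. The median over the genes of the log2 ratio was -0.16 at the densest window, 0.08 for summed reads by library sums and -0.81 for summed reads by IP depth, and that over the 13 windows went from -0.01 on MAnorm to 0.42 by library sums, so the sign of both medians turned with the scaling. The best-scored AP-1 peak, the FOSL1 3′ UTR, had a fold of 3.01 in the lactate list, where the highest fold was 11.1, and 3.83 in the ddH2O list, where it was 11.8. For single windows, genes and regions, 45 recomputed values stayed within the counting interval or 1.5 times the count and 24 moved. Windows under 20 reads limit FOSL1 intron peak 1 and the intron and upstream 3′ UTR peaks of FOSL2. No paired analysis was possible because each group had 1 library.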

Other observations

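EGR1, a zinc finger transcription factor induced together with FOS and JUN, had the largest MAnorm log2 ratio among the densest windows, with at least 20 reads, of the pathway genes listed here, and it was singled out after its values were seen. Its 3′ UTR window held 329 reads with lactate and 147 with ddH2O, at densities of 229 and 53.4 reads per kb. The log2 ratio was 2.1 on MAnorm, 2.02 by library sums and 1.13 by IP depth, so it stayed past 2-fold toward lactate on each of these scalings, which no AP-1 window did.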
